A study of Caenorhabditis elegans with 11 samples.

Results

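The nas genes of Caenorhabditis elegans, which code for astacin metalloproteases, were followed in worms ageing on 2-deoxy-D-glucose (DOG). Every row of the count table whose gene name starts with nas- was taken, which gave 36 genes of 45461 rows. Of these, 27 reached 100 counts in total and were tested together with the other genes of that depth (14773 in all), 8 had fewer counts, and nas-2 had 0 counts in every library. The worms were wild type, strain N2 (var. Bristol), moved after the L4 larval stage to agar with 5 mM DOG, a glucose analogue that cannot pass through glycolysis, and fed heat-inactivated Escherichia coli. RNA came from pools of whole adults 1, 5 and 10 days after L4 (3 libraries each) and 20 days after L4 (2 libraries). All groups carry DOG, and worms without it were not analysed here, so the values describe age under DOG and not the action of DOG. Worms were washed every day and let settle so that offspring stayed behind.

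Astacins are secreted zinc proteases made as inactive precursors, and they cut extracellular proteins such as procollagens, cuticle components and egg coats. In the nematode, members are known for the remodelling of the cuticle at moults, for the formation of the grinder in the pharynx and for hatching. By the usual subgrouping of the family, nas-1 to nas-5 hold little beyond the protease domain, nas-6 to nas-15 add ShK domains, nas-16 to nas-30 add EGF and CUB domains, nas-31 and nas-32 carry EGF, CUB and ShK domains, nas-33 to nas-38 carry EGF, CUB and thrombospondin domains, and nas-39 is the member built like tolloid. A few family members go by other names, among them hch-1, dpy-31 and toh-1, which are treated after the nas rows.

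The libraries held 23648292 to 58499127 counts on genes, of which 3629 to 7069 fell on nas genes. Libraries of one age differed by more than the sampling of reads, with a chi-square of 4.71 to 18.3 per degree of freedom, so none is a copy of another. No source says whether the libraries of one age came from separate cultures, and p-values then measure only the spread between these libraries, which may be technical. In whole animals, fewer cells of a type and less RNA per cell cannot be told apart. Levels are given as CPM, which is each count scaled to the counts on genes of its library, and, where genes are compared, per kilobase of exon as well, as RPKM.

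The family's transcripts were dominated by a few genes. Summed over the 36 genes, the level was 145.5 to 153.5 CPM at 1 day, 179.4 to 195.9 CPM at 5 days, 122.5 to 131.9 CPM at 10 days and 110.4 to 118.5 CPM at 20 days, so the 4 ages did not overlap. Per length, nas-11 (K11G12.1) and nas-20 (T11F9.3) were the most abundant members, with 20.0 and 27.3 RPKM at 1 day, and nas-11 alone made up 21.7, 43.3, 35.1 and 37.8% of the summed RPKM at 1, 5, 10 and 20 days. The share of nas-20 was 29.7, 31.9 and 34.5% at 1, 5 and 10 days but 6.09% at 20 days. The other abundant members were nas-3, nas-37 and nas-9, which stood at 8.19, 7.91 and 7.69 RPKM at 1 day. By 20 days nas-3 had fallen to 0.290 RPKM, and nas-37 and nas-9, at 5.92 and 5.64 RPKM, had passed nas-20, at 3.74 RPKM, as had nas-5, at 4.43 RPKM. In the order of RPKM at 1 day, nas-3, nas-37 and nas-9 were closer to each other than the spread of nas-3 (SD 2.81 RPKM, n = 3).

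**Figure D1:**
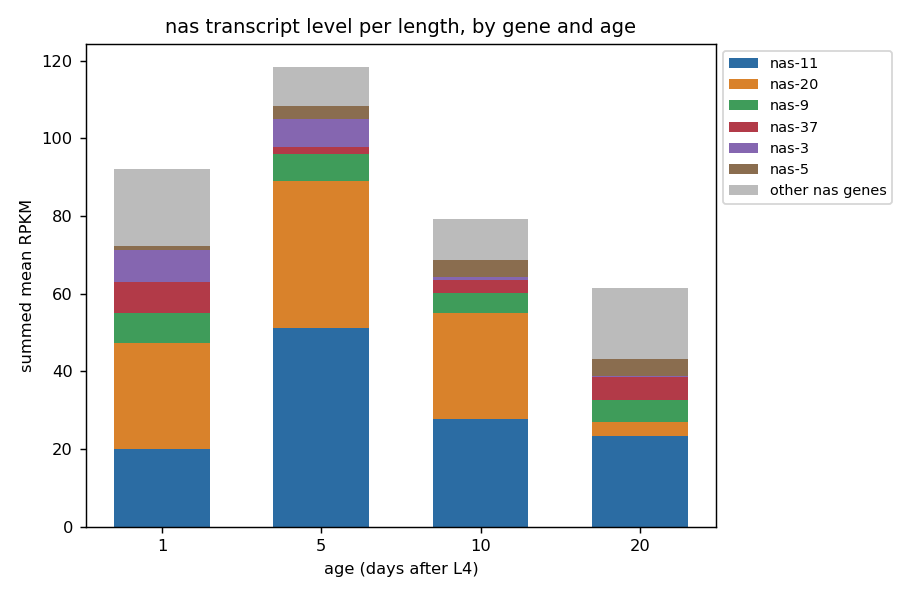
Summed mean RPKM of the nas genes (y axis) at each age on 5 mM DOG (x axis, days after L4), stacked by gene, with all members outside the 6 named ones in grey. The totals at 1, 5, 10 and 20 days were 92.1, 118.3, 79.2 and 61.5 RPKM, and the orange band of nas-20 is 3.74 RPKM high at 20 days, against 27.3 RPKM at 1 day.

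All but 1 of the 27 tested genes differed between ages. In edgeR's F test over the 4 ages, 26 members passed an adjusted p of 0.01, where 91.4% of all genes tested did, and nas-12 was the exception (adjusted p = 0.090). The first interval was mainly one of lower levels. Between 5 days and 1 day, 15 members fell and 5 rose by edgeR, where 34% of all genes tested fell and 34.5% rose, and so 20 members (74.1%) changed, beside 68.4% of all genes. The members' median log2 change was -0.92, beside -0.01 over all genes tested. The middle interval moved fewer of them. Between 10 days and 5 days, 4 members rose and 6 fell, where 23.7% of all genes rose and 24.6% fell (10 members changed, beside 48.4% of all genes), with a median log2 change of -0.04 for the members and 0.00 for all genes. The 4 that rose were nas-5, nas-29, nas-37 and nas-39. Only nas-37 and nas-39 kept the call when any one library of 5 days, or the first or the third of 10 days, was left out. The last interval ran the other way. Between 20 days and 10 days, 14 members rose and 6 fell, where 28.3% of all genes rose and 28.2% fell (20 members changed, beside 56.5% of all genes), and the median log2 change was 0.75 for the members and 0.01 for all genes. Scaled by library size alone, 15 members rose and 6 fell in that interval, while the split over all genes shifted to 5221 higher and 2974 lower, against 4176 higher and 4173 lower as reported here. Over the whole span, 20 days against 1 day, 12 members fell and 5 rose, where 38% of all genes fell and 38.5% rose (17 members changed, beside 76.5% of all genes), with log2 changes of -6.0 to 6.7 and a median of -0.42, beside -0.01 for all genes.

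**Figure D2:**
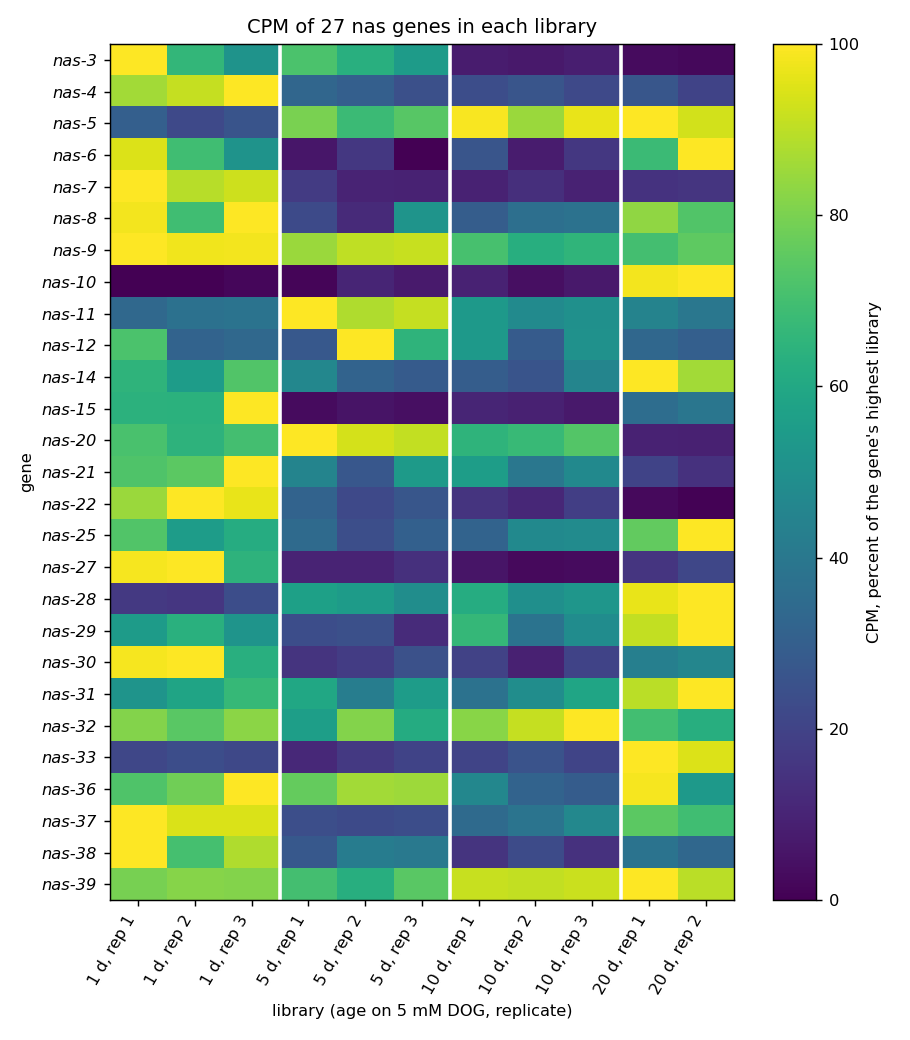
Level of each of the 27 tested nas genes (rows) in each of the 11 libraries (columns), as a percentage of that gene's highest library in CPM, with white lines between ages. Many rows are bright at 1 day, dark at 5 and 10 days and brighter again at 20 days, whereas nas-10 and nas-33 are bright only at 20 days and nas-20 is dark there.

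Among the genes with little beyond the protease domain, nas-3 (K06A4.1) fell sharply between 5 and 10 days. Its level was 12.6, 8.38 and 6.5 CPM at 1 day, 9.07, 7.96 and 6.93 CPM at 5 days, 0.945, 0.854 and 1.08 CPM at 10 days and 0.377 and 0.274 CPM at 20 days. The libraries of 10 days lay below all those of 5 days and 1 day, and those of 20 days were lower still. The log2 change was -3.04 ± 0.22 (adjusted p = 8.2e-10) at 10 days against 5 days, and -4.92 ± 0.29 (adjusted p = 7.1e-12) at 20 days against 1 day (edgeR). The further fall at 20 days against 10 days, -1.68 ± 0.41 (adjusted p = 0.0015), lost its call without the second library of 20 days (adjusted p = 0.021). At 1 day its counts were 299, 291 and 262, in libraries of 23648292, 34717079 and 40277713 counts, which gives the wide spread of its CPM at that age.

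In the same subgroup, nas-5 (T23H4.3) rose instead. It stood at 1.61, 1.18 and 1.39 CPM at 1 day, 4.26, 3.64 and 3.96 CPM at 5 days, 5.29, 4.54 and 5.15 CPM at 10 days and 5.34 and 4.97 CPM at 20 days. All libraries of 5, 10 and 20 days were above all libraries of 1 day. The log2 change came to 1.48 ± 0.14 (adjusted p = 1.1e-08) at 5 days against 1 day and 1.76 ± 0.13 (adjusted p = 3.3e-10) at 20 days against 1 day. The smaller step at 10 days against 5 days, 0.33 with an adjusted p of 0.0097, was lost without any one of 8 libraries, all but the first 2 of 1 day and the second of 10 days, with adjusted p-values of up to 0.054. nas-4 (C05D11.6) fell to 0.479 to 0.650 CPM at 5 days, against 1.69 to 1.96 CPM at 1 day, and lay between 0.393 and 0.528 CPM at 10 and 20 days (20 days against 1 day, log2 change -2.14 ± 0.21, adjusted p = 1.7e-08). Of its exon length, 18.8% overlaps another gene in the annotation WBcel235.

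The members of the ShK subgroup include the pair linked to the pharyngeal grinder, nas-6 (4R79.1) and nas-7 (C07D10.4). Of the 9 tested members of this subgroup, 5 fell and 2 rose at 5 days against 1 day, where 34% of all genes fell and 34.5% rose. At 20 days against 10 days, 5 rose and 1 fell, where 28.3% of all genes rose and 28.2% fell. nas-7 was measured at 4.74, 4.23 and 4.37 CPM at 1 day, 0.831, 0.466 and 0.447 CPM at 5 days, 0.46, 0.629 and 0.448 CPM at 10 days and 0.698 and 0.735 CPM at 20 days. The later libraries reached 0.831 CPM at most, while the lowest library of 1 day was at 4.23 CPM, and those of 5 days overlapped both other later ages while those of 10 days all lay below those of 20 days. The log2 change was -2.99 ± 0.19 (adjusted p = 4.2e-11) at 5 days against 1 day and -2.77 ± 0.18 (adjusted p = 3.1e-11) at 20 days against 1 day, and at 20 days against 10 days it was 0.39 ± 0.24 (adjusted p = 0.17), not called. nas-6 is a scarce transcript, with 13, 14 and 12 counts at 1 day, 1, 3 and 0 counts at 5 days, 6, 2 and 5 counts at 10 days and 21 and 34 counts at 20 days. These counts equal 0.55, 0.403 and 0.298 CPM at 1 day, 0.0361, 0.0933 and 0 CPM at 5 days, 0.153, 0.045 and 0.0933 CPM at 10 days and 0.396 and 0.581 CPM at 20 days. Both libraries of 20 days had returned to the range of the 1-day libraries or to just above it. The log2 change was -3.14 ± 0.62 (adjusted p = 1.6e-04) at 5 days against 1 day, 2.24 ± 0.45 (adjusted p = 2.4e-04) at 20 days against 10 days and 0.15 ± 0.36 (adjusted p = 0.70) at 20 days against 1 day. Pooled over the libraries, the 39 counts at 1 day and 4 counts at 5 days give a level 9.01 times lower at 5 days (95% exact interval 3.25 to 34.7, counting error only).

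Markers of the pharynx fell with this pair in the first interval, where 34% of all genes tested fell and 34.5% rose. For this and the later marker lists, the shares of all genes in the other spans are those given above. The 5 pharyngeal muscle markers in the table all fell at 5 days against 1 day, and their summed level was 288.7 to 317.3 CPM at 1 day, 68.4 to 74.4 CPM at 5 days, 107.2 to 120.9 CPM at 10 days and 138.5 to 138.9 CPM at 20 days. At 10 days against 5 days 3 of them rose and 0 fell, where neither nas-6 nor nas-7 was called. At 20 days against 10 days 2 rose and 0 fell, where nas-6 rose and nas-7 was not called. All 5 fell at 20 days against 1 day, a span over which nas-7 fell and nas-6 was not called. Of the 4 tested markers of the pharyngeal glands, 3 fell at 5 days against 1 day and none was called higher at 20 days against 10 days. The glands' 6 markers summed to 25.3 to 28.1 CPM at 1 day and to between 2.32 and 4.01 CPM at the later ages. No pharyngeal muscle marker was at 0 in any library, whereas the gland marker phat-1 was at 0 in at least 1 library of 10 days and phat-5 in at least 1 of 20 days. Their part in the change of nas-6 and nas-7 was not tested.

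nas-11, the most abundant member per length at 5, 10 and 20 days, peaked at 5 days. Its libraries held 33.1, 36.4 and 37.3 CPM at 1 day, 97.8, 86.2 and 89.3 CPM at 5 days, 52.5, 46.8 and 49.1 CPM at 10 days and 43.8 and 38.8 CPM at 20 days. The 5-day libraries were above all others. In CPM, which is scaled by library size alone, unlike the edgeR fit, the 20-day libraries were above all those of 1 day. The log2 change was 1.31 ± 0.06 (adjusted p = 4.9e-13) at 5 days against 1 day, -0.89 ± 0.06 (adjusted p = 1.8e-10) at 10 days against 5 days and -0.36 ± 0.06 (adjusted p = 7.3e-05) at 20 days against 10 days. Over the whole span, 20 days against 1 day, the log2 change was 0.06 ± 0.07 (adjusted p = 0.44), which was not called. In the annotation WBcel235, 9.17% of the exon length of nas-11 overlaps smf-2, and reads there could be counted for neither gene under the mode that the authors used.

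nas-9 (C37H5.9) declined by a smaller amount. It ran at 14, 13.7 and 13.8 CPM at 1 day, 11.9, 12.7 and 12.8 CPM at 5 days, 9.96, 8.81 and 9.18 CPM at 10 days and 9.82 and 10.5 CPM at 20 days. The 1-day libraries were the highest, those of 5 days came next, and those of 10 and 20 days overlapped below them. The log2 change was -0.43 ± 0.07 (adjusted p = 2.5e-05) at 10 days against 5 days and -0.59 ± 0.07 (adjusted p = 3.8e-07) at 20 days against 1 day.

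nas-10 (K09C8.3) appeared late. It had 0, 0 and 2 counts at 1 day, 1, 9 and 6 counts at 5 days, 10, 5 and 10 counts at 10 days and 141 and 158 counts at 20 days, or 0, 0 and 0.0497 CPM at 1 day, 0.0361, 0.28 and 0.192 CPM at 5 days, 0.255, 0.112 and 0.187 CPM at 10 days and 2.66 and 2.7 CPM at 20 days. A library with 0 counts can still hold up to 0.127 CPM at the depth of the shallowest library of 1 day, so the gene was not detectable there rather than absent. Levels reached 0.280 CPM at most at 5 and 10 days, and both libraries of 20 days were far above every earlier one. The log2 change was 3.75 ± 0.29 (adjusted p = 2.1e-09) at 20 days against 10 days. Pooled counts of 299 at 20 days and 2 at 1 day give a level 132 times higher at 20 days (95% exact interval 36.3 to 1097, counting error only). At 5 days against 1 day, 16 pooled counts against 2 give a ratio of 8.66 (2.03 to 77.6), the libraries overlapped, and the call (adjusted p = 0.0075) was lost without the first or second library of 1 day or the second or the third of 5 days, with adjusted p-values of up to 0.055.

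Of the remaining tested members of the ShK subgroup, nas-8, nas-14 and nas-15 fell at 5 days against 1 day and rose at 20 days against 10 days. nas-15 (T04G9.2) was at 1.56, 1.56 and 2.43 CPM at 1 day, 0.0723, 0.124 and 0.0958 CPM at 5 days, 0.255, 0.225 and 0.168 CPM at 10 days and 0.867 and 0.957 CPM at 20 days. Its 5-day and 10-day libraries were all below those of 1 and 20 days. In edgeR, the log2 change was -4.26 ± 0.34 (adjusted p = 1.4e-09) at 5 days against 1 day, 1.99 ± 0.30 (adjusted p = 1.2e-05) at 20 days against 10 days and -1.20 ± 0.21 (adjusted p = 4.6e-05) at 20 days against 1 day. For nas-8 (C34D4.9) the libraries gave 1.27, 0.893 and 1.29 CPM at 1 day, 0.289, 0.155 and 0.67 CPM at 5 days, 0.383, 0.472 and 0.485 CPM at 10 days and 1.07 and 0.94 CPM at 20 days. The middle ages again lay below both ends. By edgeR its log2 change was -1.65 ± 0.33 (adjusted p = 1.7e-04) at 5 days against 1 day and 1.05 ± 0.30 (adjusted p = 0.0045) at 20 days against 10 days, and the later call was lost without the first or second library of 10 days or either library of 20 days (adjusted p of up to 0.031). nas-14 (F09E8.6) was at 1.01, 0.864 and 1.14 CPM at 1 day, 0.723, 0.497 and 0.447 CPM at 5 days, 0.46, 0.405 and 0.709 CPM at 10 days and 1.56 and 1.35 CPM at 20 days. Its 20-day libraries were above all others. The fit gave a log2 change of 1.33 ± 0.23 (adjusted p = 4.9e-05) at 20 days against 10 days, and at 5 days against 1 day it was -0.92 ± 0.26 (adjusted p = 0.0041), a call lost without the third library of 1 day or the second or the third of 5 days (adjusted p of up to 0.028). nas-12 (C24F3.3) lay between 0.325 and 1.18 CPM in all libraries and passed no test.

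**Figure D3:**
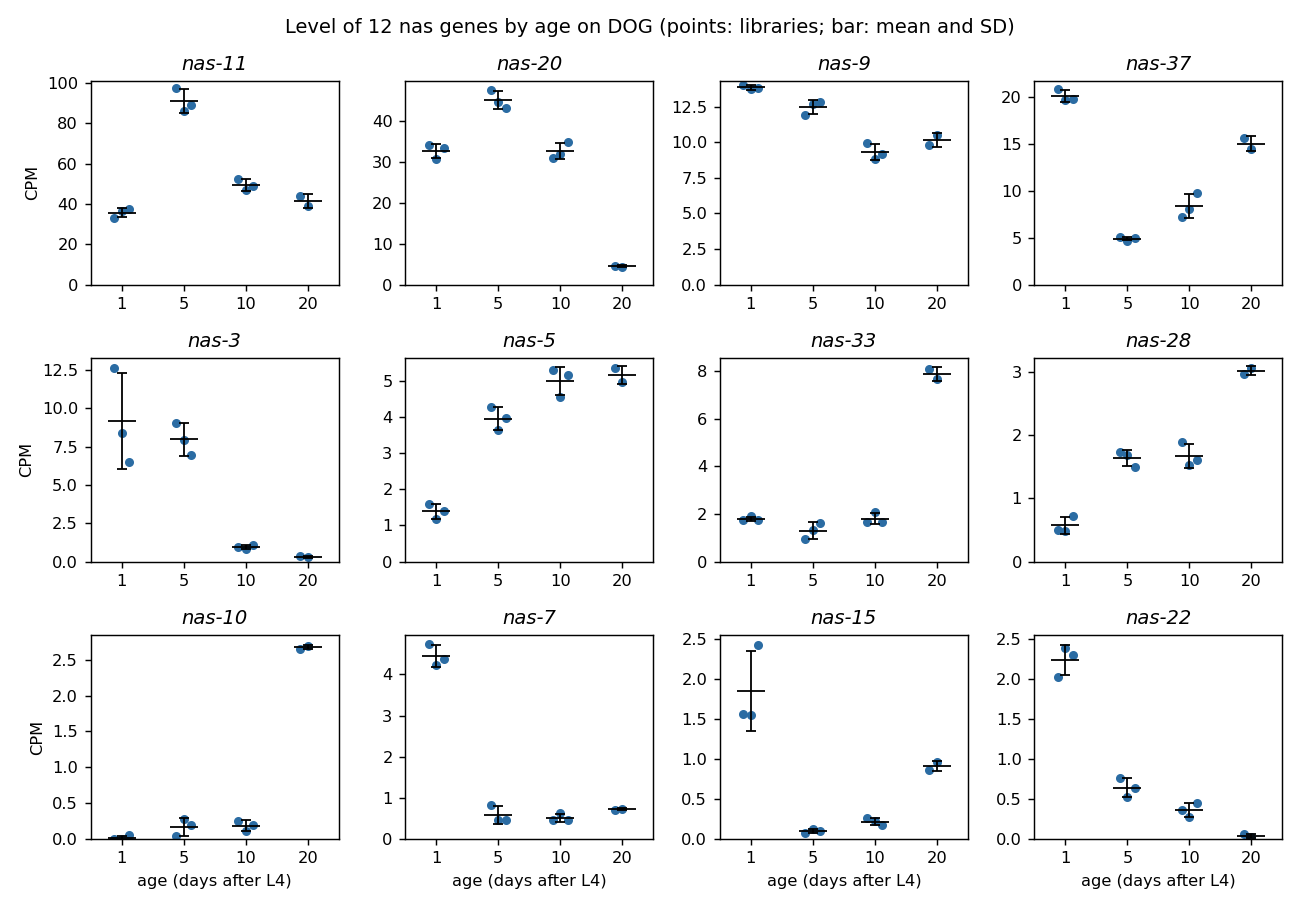
CPM of 12 nas genes (one panel each, y axis from 0) against age on 5 mM DOG (x axis, days after L4), where points are libraries and bars give the mean and SD. nas-11 peaks at 5 days, nas-10 and nas-33 stand out at 20 days, nas-7 falls at 5 days and nas-20 at 20 days.

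Members with EGF and CUB domains included nas-20, the most abundant transcript of the family per length at 1 day. Of the 8 tested, 6 fell and 2 rose at 5 days against 1 day, where 34% of all genes fell and 34.5% rose. At 20 days against 10 days, 5 rose and 3 fell, where 28.3% of all genes rose and 28.2% fell. nas-20 was read at 34, 30.7 and 33.3 CPM at 1 day, 47.6, 44.5 and 43.3 CPM at 5 days, 31, 32 and 34.8 CPM at 10 days and 4.62 and 4.32 CPM at 20 days. The libraries of 20 days were the lowest by a wide margin, and those of 5 days the highest. This was a log2 change of 0.43 ± 0.05 (adjusted p = 5.3e-07) at 5 days against 1 day, -0.47 ± 0.05 (adjusted p = 2.1e-07) at 10 days against 5 days and -2.97 ± 0.07 (adjusted p = 1.1e-16) at 20 days against 10 days. Over the whole span it was -3.02 ± 0.07 (adjusted p = 1.6e-17).

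The genes nas-20, nas-21 and nas-22 follow each other on chromosome V with 0 protein-coding genes between them in the RefSeq annotation of WBcel235, and all 3 fell at 20 days against 10 days. nas-21 (T11F9.5) gave 0.434 and 0.308 CPM at 20 days, against 0.854 to 1.20 CPM at 10 days (log2 change -1.57 ± 0.29, adjusted p = 1.1e-04). nas-22 (T11F9.6) was nearly lost, with 3 and 1 counts at 20 days, against 12 to 24 counts at 10 days and 48 to 93 counts at 1 day (20 days against 10 days, log2 change -3.33 ± 0.51, adjusted p = 1.3e-05). Pooled, its 4 counts at 20 days against 224 at 1 day give a level 63.3 times lower at 20 days (95% exact interval 24.4 to 234.4, counting error only). The 3 genes parted in the first interval, in which nas-20 rose while nas-21 (log2 change -1.03, adjusted p = 5.9e-04) and nas-22 (log2 change -1.86, adjusted p = 1.7e-07) fell.

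The summed level of the intestinal markers was 471.9 to 481.4 CPM at 20 days, against 1864 to 2020 CPM at 10 days, with 3 of the 6 markers called lower and 3 higher and none at 0. This sum is mostly that of 1 gene, asp-1. Without it the other 5 markers summed to 243.1 to 249.7 CPM at 20 days, against 132.3 to 160.0 CPM at 10 days, the opposite direction. That rise is in turn mostly act-5, with a mean of 172.5 CPM at 20 days, against 38.8 CPM at 10 days. Of the rest, elt-2 and ifb-2 also rose, while vha-6 (69.1 to 31.7 CPM) and ges-1 (15.1 to 6.75 CPM) fell. The part of the intestinal markers in the fall of nas-20, nas-21 and nas-22 was not tested.

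nas-28 (F42A10.8) rose at both ends of the course. It was found at 0.507, 0.49 and 0.72 CPM at 1 day, 1.73, 1.68 and 1.5 CPM at 5 days, 1.89, 1.53 and 1.6 CPM at 10 days and 2.96 and 3.06 CPM at 20 days. The 20-day libraries lay above all others and the 1-day libraries below all others. It changed by a log2 of 1.43 ± 0.20 (adjusted p = 3.2e-06) at 5 days against 1 day, 0.75 ± 0.14 (adjusted p = 1.1e-04) at 20 days against 10 days and 2.20 ± 0.18 (adjusted p = 1.3e-09) over the whole span. The other tested members with EGF and CUB domains, nas-25, nas-27, nas-29 and nas-30, were all lower at 5 days than at 1 day and higher at 20 days than at 10 days. Among them nas-27 (T23F4.4) had 0.283 and 0.393 CPM at 20 days, against 0.0450 to 0.102 CPM at 10 days and 1.19 to 1.84 CPM at 1 day, and nas-30 (Y95B8A.1) had 0.830 and 0.889 CPM at 20 days, against 0.180 to 0.392 CPM at 10 days and 1.22 to 1.93 CPM at 1 day. Both were still lower at 20 days than at 1 day, with a log2 change of -2.36 for nas-27 (adjusted p = 1.6e-07) and -1.09 for nas-30 (adjusted p = 4.2e-04).

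Of the pair with EGF, CUB and ShK domains, one rose and the other fell at 20 days. nas-31 (F58B4.1) was at 1.86, 2.1 and 2.41 CPM at 1 day, 2.13, 1.52 and 1.98 CPM at 5 days, 1.35, 1.75 and 2.11 CPM at 10 days and 3.22 and 3.59 CPM at 20 days. The 20-day libraries were the highest. Its log2 change was 0.85 ± 0.16 (adjusted p = 1.3e-04) at 20 days against 10 days, and at 20 days against 1 day it was 0.51 ± 0.16 (adjusted p = 0.0082), a call lost without the first or second library of 1 day, the third of 5 days or either of 20 days (adjusted p of up to 0.067). nas-32 (T02B11.7) was at 2.2, 2.02 and 2.23 CPM at 1 day, 1.52, 2.21 and 1.66 CPM at 5 days, 2.22, 2.47 and 2.71 CPM at 10 days and 1.89 and 1.69 CPM at 20 days. The 10-day libraries were above those of 20 days, with a log2 change of -0.58 ± 0.15 (adjusted p = 0.0024) at 20 days against 10 days that was lost without the third library of 10 days or the second of 20 days (adjusted p of up to 0.031).

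The subgroup with thrombospondin domains holds the genes tied to moulting, a process that ends before adulthood. nas-37 (C17G1.6), needed for the shedding of the old cuticle, was the most abundant of them at every age. Its level was 7.91 RPKM at 1 day, 1.92 RPKM at 5 days, 3.29 RPKM at 10 days and 5.92 RPKM at 20 days. At 20 days nas-33, of the same subgroup, was at 3.63 RPKM. In single libraries nas-37 held 20.9, 19.7 and 19.7 CPM at 1 day, 5.06, 4.69 and 4.92 CPM at 5 days, 7.23, 8.07 and 9.76 CPM at 10 days and 15.6 and 14.4 CPM at 20 days. The 4 ages did not overlap. In edgeR, the log2 change was -2.08 ± 0.09 (adjusted p = 4.1e-13) at 5 days against 1 day, 0.78 ± 0.10 (adjusted p = 2.3e-06) at 10 days against 5 days and 0.73 ± 0.09 (adjusted p = 6.9e-07) at 20 days against 10 days. It remained lower at 20 days than at 1 day (-0.57 ± 0.08, adjusted p = 4.6e-06).

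nas-36 (C26C6.3), which also acts in moulting, did not share this course. Its libraries were at 1.44, 1.56 and 1.99 CPM at 1 day, 1.52, 1.71 and 1.69 CPM at 5 days, 0.919, 0.629 and 0.578 CPM at 10 days and 1.96 and 1.08 CPM at 20 days. The 10-day libraries were below all others. By edgeR its log2 change was -1.25 ± 0.25 (adjusted p = 2.9e-04) at 10 days against 5 days, and at 20 days against 10 days it was 1.01 ± 0.25 (adjusted p = 0.0018), a call lost without the third library of 10 days or the first of 20 days (adjusted p of up to 0.098). nas-38 (F57C12.1), known for its link to the sleep that comes with each moult, stood at 1.18, 0.835 and 1.04 CPM at 1 day, 0.325, 0.497 and 0.479 CPM at 5 days, 0.179, 0.27 and 0.168 CPM at 10 days and 0.452 and 0.393 CPM at 20 days. The 1-day libraries were above all later ones. The fit gave a log2 change of -1.24 ± 0.26 (adjusted p = 2.7e-04) at 5 days against 1 day and -1.40 ± 0.26 (adjusted p = 5.8e-05) at 20 days against 1 day, and the further step at 10 days against 5 days, -1.10 ± 0.33 (adjusted p = 0.0081), was lost without any one of 5 libraries, the third of 1 day, the second and the third of 5 days and the first and the third of 10 days (adjusted p of up to 0.040).

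nas-33 (K04E7.3) rose late and strongly. It stood at 1.73, 1.9 and 1.74 CPM at 1 day, 0.939, 1.34 and 1.63 CPM at 5 days, 1.66, 2.07 and 1.66 CPM at 10 days and 8.09 and 7.68 CPM at 20 days. The 20-day libraries were far above the rest, those of 1 and 10 days overlapped, and those of 5 days were just below them. This was a log2 change of 2.03 ± 0.13 (adjusted p = 9.2e-11) at 20 days against 10 days and 1.98 ± 0.14 (adjusted p = 9.6e-11) at 20 days against 1 day. nas-39 (F38E9.2), the member related to the BMP1 and tolloid proteases of other animals, stayed within a narrow range, with 6.51, 6.71 and 6.65 CPM at 1 day, 5.74, 5.13 and 6.1 CPM at 5 days, 7.51, 7.42 and 7.54 CPM at 10 days and 8.18 and 7.35 CPM at 20 days. The 5-day libraries were the lowest. It changed by a log2 of 0.40 ± 0.08 (adjusted p = 4.3e-04) at 10 days against 5 days and 0.07 ± 0.09 (adjusted p = 0.43) at 20 days against 1 day, and the call at 5 days against 1 day (-0.27, adjusted p = 0.0095) was lost without any one library other than the third of 5 days (adjusted p of up to 0.058).

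Hypodermal markers, from the tissue that secretes the cuticle, were read beside these genes. At 5 days against 1 day, where 34% of all genes fell and 34.5% rose, 5 of the 7 hypodermal markers fell and 1 rose. At 20 days against 10 days, where 28.3% of all genes rose and 28.2% fell, 2 of the markers rose and 2 fell. Their summed level was 2152 to 2316 CPM at 1 day, 221.2 to 226.7 CPM at 5 days, 184.4 to 190.8 CPM at 10 days and 228.8 to 230.0 CPM at 20 days, with no marker at 0. This fall of the sum rests on the collagen gene col-19. The other 6 markers summed to 164.5 to 176.2 CPM at 1 day, 133.9 to 146.4 CPM at 5 days and 213.7 to 215.2 CPM at 20 days. Their sum is mostly ajm-1 (mean 62.0 CPM at 1 day, 121.9 CPM at 20 days) and nhr-23 (65.4 and 82.5 CPM). These were the 2 of the 7 markers called higher at 20 days against 1 day, and the other 5 were called lower. The part of the hypodermal markers in the changes of the moulting genes was not tested.

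Setting the first and the last interval side by side, 9 of the 27 members (33.3%) fell at 5 days against 1 day and rose at 20 days against 10 days, where 11% of all genes tested did both. These intervals share no library. The 9 genes are nas-6, nas-8, nas-14, nas-15, nas-25, nas-27, nas-29, nas-30 and nas-37, which come from the ShK, the EGF and CUB and the thrombospondin subgroups. The opposite course, higher and then lower, was called for nas-11 and nas-20 (11.8% of all genes), both steps up for nas-10 and nas-28 (8.27% of all genes) and both steps down for nas-21 and nas-22 (8.91% of all genes). This way of counting was chosen after the values were seen, and the count of 9 was 6 to 8 with any one library left out and 5 with DESeq2. The 5 genes nas-6, nas-15, nas-27, nas-30 and nas-37 kept both calls in every such omission. Of these, nas-6 and nas-27 were scarce at the middle ages. Pooled counts at 1, 5, 10 and 20 days were 39, 4, 13 and 55 for nas-6 and 155, 19, 9 and 38 for nas-27. Both thus reached the minimum of summed counts mainly through the ages at which they were high. Their entry into the test, and so into the 9, rests on those ages. For nas-25 the first call was lost without the second library of 5 days (adjusted p = 0.015) and the second without the first of 10 days or the second of 20 days (adjusted p of up to 0.053). For nas-29 the first was lost without the third library of 5 days (adjusted p = 0.011), and the second without any one library other than the third of 5 days and the first of 10 days (adjusted p of up to 0.064).

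**Figure D4:**
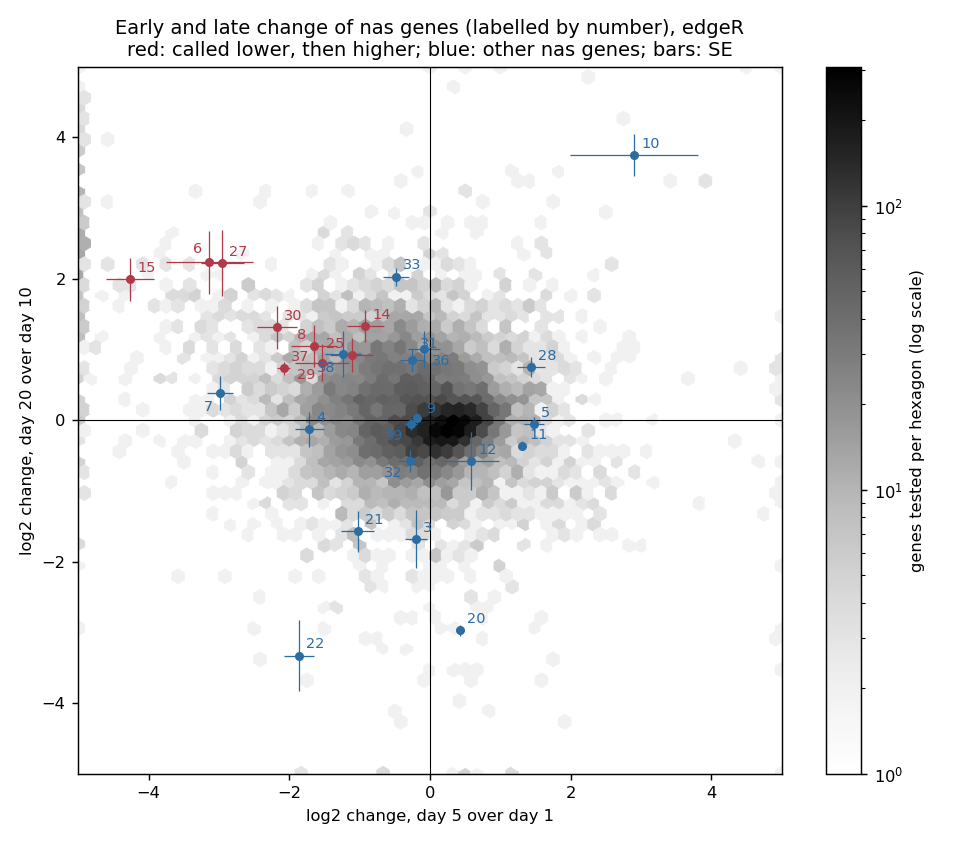
Log2 change at 20 days over 10 days (y axis) against log2 change at 5 days over 1 day (x axis) for the nas genes, labelled by their number, with bars for the SE, over the number of all tested genes in each grey hexagon (log scale, with changes beyond 5 drawn at the edge). The 9 genes in red, at the upper left, were called lower and then higher, and nas-10 at the upper right rose in both intervals.

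Sperm markers were among those that mostly fell in the first interval and rose in the last. Of the 6 tested, 5 fell at 5 days against 1 day and 4 rose at 20 days against 10 days, none was called the other way, and the list's 9 markers summed to 19 to 20.7 CPM at 1 day, 4.91 to 5.53 CPM at 5 days, 4.94 to 5.44 CPM at 10 days and 9.01 to 11.5 CPM at 20 days. msp-10 and msp-19 were at 0 in every library of 5 and 10 days. Without spe-41, the most abundant of the list, the sum was 4.37 to 5.56 CPM at 20 days, against 1.30 to 2.05 CPM at 10 days. None of the 6 tested was called at 10 days against 5 days. Over all genes tested, 34% fell and 34.5% rose in the first interval, and 28.3% rose and 28.2% fell in the last. Muscle markers also fell in the first interval, but the 2 lists differed later. All 5 pharyngeal muscle markers fell in the first interval, and in the last 2 rose and 0 fell. All 4 tested body wall muscle markers fell in the first, and in the last 2 rose and 1 fell. All 4 also fell at 10 days against 5 days, where 3 pharyngeal muscle markers rose. The body wall list summed to 446.6 to 488.7 CPM at 10 days and 460.7 to 506.6 CPM at 20 days, which overlapped. Germline markers differed, with 6 higher and 1 lower in the first and 0 higher and 3 lower in the last. The part of these markers in the course of the 9 nas genes was not tested. Markers of the somatic gonad rose in both the middle and the last interval, with 5 of 6 called higher and 0 lower in each. In the first, 0 were higher and 2 lower. Their sum was 25.1 to 29.1 CPM at 5 days, 36.1 to 37.5 CPM at 10 days and 70.4 to 72.1 CPM at 20 days.

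**Figure D5:**
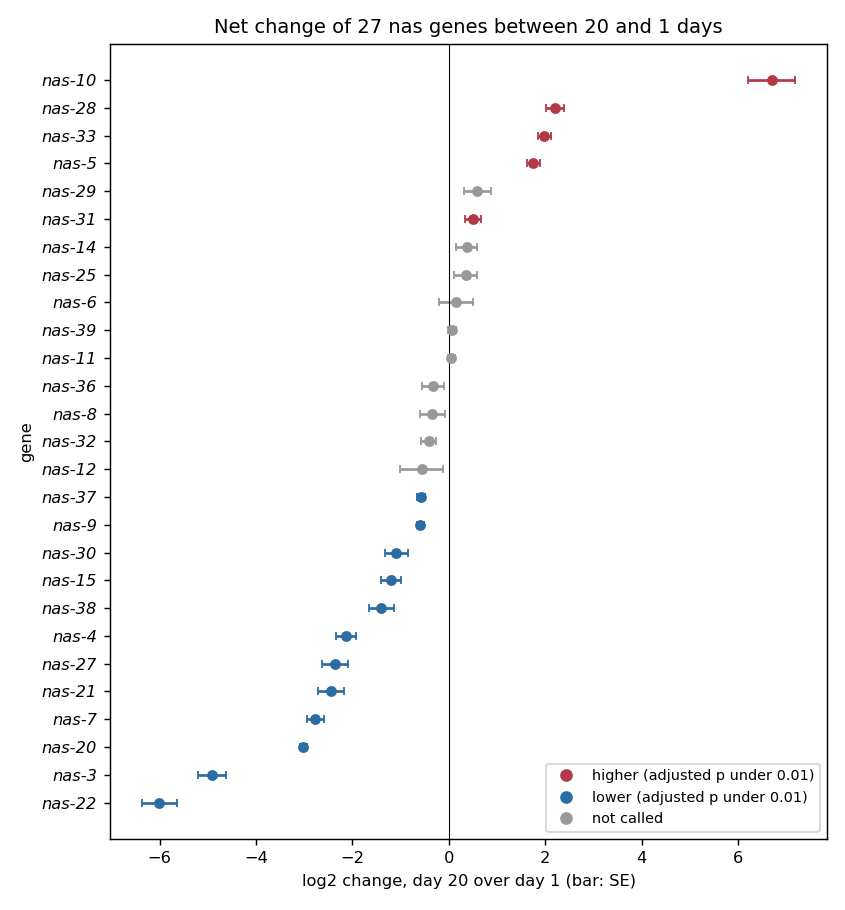
Log2 change at 20 days over 1 day (x axis) for the 27 tested nas genes in order of size, with bars for the SE of the edgeR fit. The 5 genes in red, nas-10, nas-28, nas-33, nas-5 and nas-31, rose, the 12 in blue fell, and the 10 in grey were not called.

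Few members changed in one direction throughout life. Steadiness was measured by rank correlation with age, as Spearman's rho averaged over 54 ways of taking 1 library per age. A rho of 0.75 or more was reached by 3 members, nas-5 (0.93), nas-28 (0.91) and nas-10 (0.87), where 27.1% of all genes tested did. As strong a fall with age was seen for 5 members, where 18.4% of all genes passed the same limit downwards: nas-22 (-1), nas-3 (-0.91), nas-21 (-0.87), nas-9 (-0.83) and nas-4 (-0.81). The other 19 tested members followed no steady course by this measure.

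The 8 members under 100 counts were read too thinly for a test. nas-1 (F45G2.1), just outside with 99 counts against 111 for nas-6 just inside, had 17, 13 and 28 counts at 1 day, 2, 0 and 2 counts at 5 days, 6, 6 and 14 counts at 10 days and 8 and 3 counts at 20 days. Its 58 pooled counts at 1 day and 4 at 5 days give a level 13.4 times lower at 5 days (95% exact interval 4.96 to 50.8). nas-13 had 84 counts in all, nas-24 71, nas-23 32, nas-18 9, nas-16 7, nas-19 5 and nas-17 4. Of the 71 counts of nas-24, 42 fell in the 2 libraries of 20 days. nas-16, nas-17, nas-18 and nas-19 lie close together on chromosome V, and none held over 4 counts in any library. nas-2 was at 0 in all 11 libraries, each of which allows a level of up to 0.0513 to 0.127 CPM for a count of 0. Of the 9 members that were not tested, 6 lie on chromosome V.

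The astacin genes that carry other names were read in the same libraries. hch-1, the hatching enzyme, showed the widest range, with 0.439 ± 0.101 CPM at 1 day, 6.29 ± 0.490 CPM at 5 days, 47.2 ± 0.951 CPM at 10 days (SD, n = 3 each) and 23.2 ± 2.02 CPM at 20 days (SD, n = 2). The log2 change came to 5.57 ± 0.13 (adjusted p = 4.5e-18) at 20 days against 1 day. Of 6 tested early embryonic markers, 3 were called higher and none lower in the middle interval, where 23.7% of all genes rose and 24.6% fell. In the first interval, where hch-1 rose (log2 change 3.79), 3 were higher and 2 lower. In the last, where hch-1 fell (-1.13), 2 were higher and 2 lower. The sum over the 11 markers was 10.6 to 11.2 CPM at 10 days, against 4.45 to 5.94 CPM at 5 days. Without tbx-38, the most abundant of the list, it was 4.72 to 5.06 CPM, against 2.21 to 3.45 CPM. Of the 11 markers, hlh-25 and med-1 were at 0 in every library of 10 days, and med-1 also in every library of 5 days. Their part in the level of hch-1 was not tested. toh-1 resembled the 9 nas genes above, as it fell at 5 days against 1 day (log2 change -1.21 ± 0.07, adjusted p = 2.3e-11) and rose at 20 days against 10 days (0.62 ± 0.07, adjusted p = 6.0e-07). dpy-31, the procollagen C-proteinase that processes the cuticle collagen SQT-3, was at 28.1 ± 0.828 CPM at 20 days (SD, n = 2), against 24.8 ± 1.5 CPM at 1 day (SD, n = 3), with a log2 change of 0.02 ± 0.06 (adjusted p = 0.72) at 20 days against 1 day. In between it fell at 10 days against 5 days (-0.24 ± 0.05, adjusted p = 8.9e-04) and rose at 20 days against 10 days (0.25 ± 0.06, adjusted p = 6.8e-04).

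Other genes of cuticle and matrix were counted for comparison. Of all genes tested, 34.5% rose and 34% fell at 5 days against 1 day. At 10 days against 5 days 23.7% rose and 24.6% fell, and at 20 days against 10 days 28.3% and 28.2%. Over the whole span 38.5% rose and 38% fell. Of 16 tested genes of moulting and the apical matrix, 5 rose and 7 fell at 5 days against 1 day, 9 rose and 3 fell at 10 days against 5 days, and 5 rose and 5 fell at 20 days against 10 days, while let-767 of this list was at 0 counts. Over the whole span, 8 rose and 7 fell, among them fbn-1, a fibrillin-like matrix protein (log2 change 4.92, adjusted p = 5.0e-18), noah-1, an apical matrix protein (2.39, adjusted p = 2.6e-13), and lrp-1, a receptor of the LDL family (1.96, adjusted p = 1.8e-15), which rose, and bli-5, a protease inhibitor with a Kunitz domain (-2.44, adjusted p = 1.6e-05), which fell. Of 14 genes for the maturation of collagen and cuticle, 9 fell and 2 rose at 5 days against 1 day, 7 rose and 2 fell at 10 days against 5 days, and 7 rose and 3 fell at 20 days against 10 days. Over the whole span, 6 fell and 2 rose. The collagen gene sqt-3 (-1.34, adjusted p = 1.3e-10) and adt-2, a protease of the ADAMTS family (-1.45, adjusted p = 1.7e-13), were among those that fell over the whole span, and the proprotein convertase bli-4 (1.15, adjusted p = 3.1e-15) and the oxidase duox-2 (3.73, adjusted p = 4.3e-08) were the 2 that rose.

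Other metalloprotease families were read in the same way, and the shares of all genes are those given for the cuticle and matrix lists. At 20 days against 10 days 28.3% of all genes rose and 28.2% fell, and at 5 days against 1 day 34.5% and 34%. Of the 10 tested ADAM, ADAMTS and matrix metalloprotease genes, 6 rose and none fell at 20 days against 10 days, 3 rose and 4 fell at 5 days against 1 day, and 3 rose and 1 fell at 10 days against 5 days. Over the whole span, 5 rose and 3 fell, with log2 changes of 1.97 for the matrix metalloprotease zmp-1 (adjusted p = 3.3e-11) and 1.27 for the ADAM gene adm-2 (adjusted p = 2.8e-14). The listed inhibitor that was in the table, cri-2, related to the TIMP inhibitors of metalloproteases, fell at 5 days against 1 day (-0.32, adjusted p = 9.9e-04) and at 10 days against 5 days (-0.60, adjusted p = 3.0e-06) and rose at 20 days against 10 days (1.15, adjusted p = 2.5e-10). Of the neprilysins, membrane-bound peptidases, nep-1 (1.27, adjusted p = 6.4e-15) rose and nep-2 (-0.27, adjusted p = 0.0054) fell at 20 days against 1 day.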

How the data were processed

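Total RNA from whole worms was made into TruSeq libraries and sequenced as single reads of 50 bases. Per the labels and the study's methods, the authors used TopHat 1.4.1 with the worm genome WS220 and then HTSeq in mode union, which drops reads on overlapping genes. The version of HTSeq and the strand setting are not given in the sources used here. The deposited values are raw counts, without normalization or pooling, between 23648292 and 58499127 per library. Precision is limited by the spread between libraries (biological coefficient of variation 4.14%) for abundant genes and by the number of reads for scarce ones.

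The test on counts was the quasi-likelihood F test of edgeR 4.0.16, run in R 4.3.3 beside limma 3.58.1, on 14773 genes that reached 100 counts in total. One fit held the 4 ages, TMM factors ran from 0.946 to 1.076, and p-values were adjusted by Benjamini-Hochberg and called under 0.01. Changes are log2 ± SE. The step was first tested on simulated counts. CPM and RPKM were computed on the counts on genes of each library, with the summed exon length of WBcel235, known for all 36 nas genes and 98.6% of the genes tested. No coordinates are given, because this build is not that of the reads. Intervals for scarce genes are exact and conditional on the summed counts. The members and gene lists were chosen with earlier results of these data known, and the subgroups were assigned from general knowledge of the family. Every library's value is given for the 16 members with the largest change among those called in a pair of ages and holding 50 counts or more throughout an age, for the 5 highest by RPKM and for those with a well known role, which together gave 18 genes. nas-15 and nas-1, and the sums of marker lists without their most abundant gene, were added after the values were seen. Alternatives were other size factors, DESeq2 1.42.0, other filters, thresholds and sample sets, a replicate block, and each library left out.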

Additional observations from a re-analysis of the deposited data

How the results depend on the processing

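None of the 67 called changes reversed under any alternative, and 15 lost their call in at least 1, the same 15 that lost it with a library left out. With DESeq2's Wald test, 2 members rose at 10 days against 5 days and 5 followed the course lower and then higher; with only the 2 compared ages in the fit, 2 members rose at 10 days against 5 days. A minimum of 100 counts in every library left 5 members (nas-9, nas-11, nas-20, nas-37 and nas-39), of which 2 rose and 3 fell at 5 days against 1 day, 2 rose and 3 fell at 10 days against 5 days, 1 rose and 2 fell at 20 days against 10 days, and 0 rose and 3 fell at 20 days against 1 day, with 1 lower and then higher. The other members no longer entered, while all 15 called changes of these 5 were kept and nas-9, not called at 5 days against 1 day in the reported fit (adjusted p = 0.017), was called there; the cause was not tested. With each library left out in turn, 4 to 5 rose and 12 to 14 fell at 5 days against 1 day, 2 to 4 rose and 5 to 6 fell at 10 days against 5 days, 11 to 14 rose and 4 to 6 fell at 20 days against 10 days, 4 to 5 rose and 12 to 13 fell at 20 days against 1 day, and 6 to 8 went lower and then higher. At a rho threshold of 0.9, 2 members were steady upwards and 2 downwards. Scaling by library size alone moved the median of all genes to 0.14 at 20 days against 1 day, against -0.01 with TMM.

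Deviations from the age means correlated between -0.19 and 0.12 in pairs of libraries with the same replicate number, and between -0.22 and 0.22 in the other pairs. Because deviations cancel within an age of 2 or 3 libraries, these values cannot show whether same-numbered libraries share a culture or batch. With the replicate number as a block, 4 calls were lost, and 13 members rose and 6 fell at 20 days against 10 days. Depth limits the scarce members most, with fewer than 10 counts in 7 libraries for nas-10, in 6 each for nas-6 and nas-27, in 4 for nas-15, in 3 each for nas-29 and nas-38, and in 2 each for nas-8, nas-22 and nas-30.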
